A study of Arabidopsis thaliana with 12 samples.

Results

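The response of wild-type Arabidopsis seedlings to Trichostatin A (TSA), an inhibitor of histone deacetylases, was described from 6 of the 12 RNA-seq libraries of the series: the 3 libraries of Col-0 treated with dexamethasone (DEX) and TSA, and the 3 libraries of Col-0 treated with DEX alone. They were chosen by the genotype and treatment that their labels give, not by any measured value. Whole seedlings were used 5 days after germination. The first group was kept for 2 h in 0.5× MS with 0.015% Silwet, 25 µM DEX and 1 µM TSA, and the second in the same solution without TSA; the study's methods give a lower DEX dose than the labels. Both groups thus carry DEX, which activates proteins fused to the glucocorticoid receptor. Col-0 carries no such fusion, and Col-0 seedlings without DEX were not analysed here, so that the effect of TSA was measured in its presence. The remaining 6 libraries come from the *WUS-GR* line, in which a ubiquitously driven *pUBI10* transgene (*pUBI10::mCherry-GR-linker-WUS*) puts the stem cell regulator WUSCHEL under control of DEX. They are used below as a second comparison of the same treatment, in seedlings where DEX also activates WUSCHEL. Since each library holds a whole seedling mixture, fewer cells of a type and less RNA per cell cannot be told apart.

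Histone acetylation loosens the contact between histone tails and DNA and is generally found at transcribed genes. It is set by histone acetyltransferases and removed by histone deacetylases (HDACs). In plants these fall into the RPD3-like class, which includes *HDA6* and *HDA19*, the plant-specific HD2 class and the sirtuins. TSA blocks zinc-dependent deacetylases of the RPD3 type, and sirtuins, which use NAD, are not its targets. Many repressors work by recruiting deacetylases, among them the TOPLESS corepressors that auxin and jasmonate signaling employ.

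Total counts per library lay between 17968085 and 21578662 in the TSA group and between 14984125 and 20466344 in the DEX group, and 16932 to 17079 against 16544 to 17078 genes had at least 10 counts. The 10 most abundant genes took 6.18% to 6.40% of the counts with TSA and 5.68% to 5.88% without it. Libraries of one group correlated at r = 0.983 to 0.990 across genes on the log2 CPM scale (CPM, the counts scaled to library size with TMM factors) and libraries of different groups at 0.899 to 0.921, a description across genes, which are not independent. The *WUS* identifier had 38 to 42 counts with TSA and 27 to 52 counts without it in Col-0, and 94664 to 142276 counts in all 6 *WUS-GR* libraries, where the coding sequence of the transgene is counted with the endogenous gene, which fits the genotype labels. All 37 listed nuclear photosynthesis genes had at least 10 counts in every Col-0 library, 10 of the 22 seed and embryo genes had 3 or fewer in every library and 8 of the 26 flower genes likewise. The root hair genes *RHD6*, *RSL4* and *EXP7* did not pass the filter on low counts.

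TSA changed the transcript level of most expressed genes within 2 h. Of 17271 genes tested, 5481 rose and 5611 fell at an adjusted p under 0.05, which is 64.2% of the genes tested (31.7% higher and 32.5% lower). In 5304 of the genes that rose and in 5470 of those that fell, the 3 libraries with TSA did not overlap with the 3 libraries without it, against 11916 of all genes tested (69.0%). A call nearly fixes this. Most changes were small: 56.6% of the called genes changed less than 2-fold. At least 2-fold higher were 2407 genes (13.9% of those tested) and at least 2-fold lower were 2406 (13.9%), and 549 and 577 genes passed 4-fold. The median log2 fold change was 0.90 among genes that rose and -0.89 among genes that fell, and 0.00 over all genes tested, where the scaling by TMM places it. CPM measures the share of a library, so an equal change of all transcripts would not be seen. Scaled by library totals instead, the median of all genes moved to -0.08 and the higher genes made up 43.6% of the calls in place of 49.4%.

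**Figure D1:**
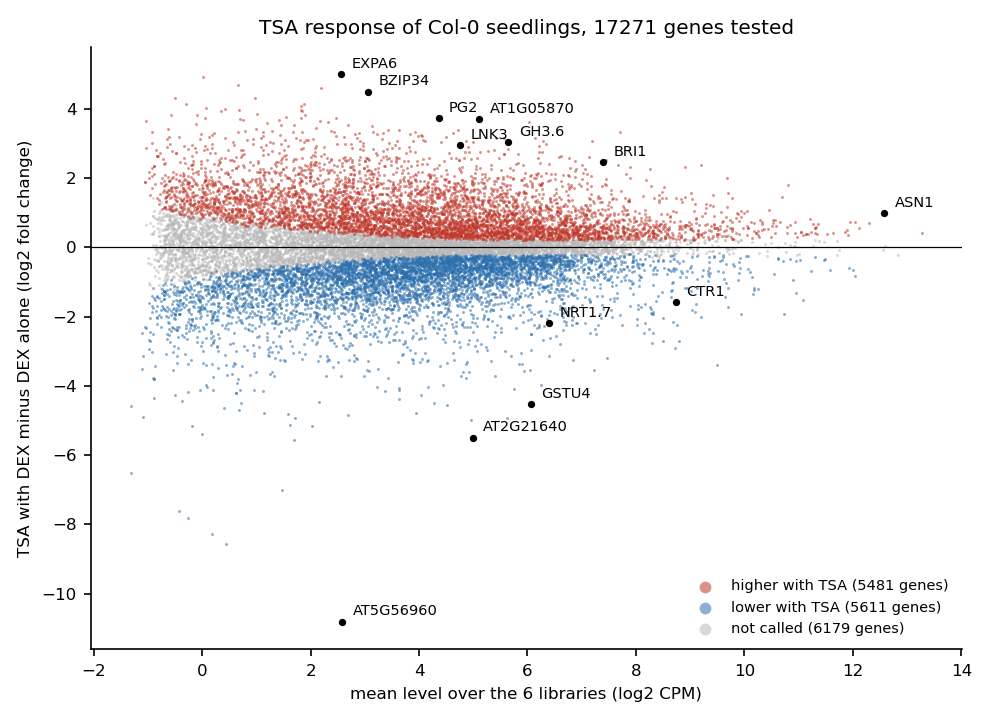
Response to TSA in Col-0. Each point is 1 of 17271 genes, with its mean level over the 6 libraries (log2 CPM) on the x axis and the fitted log2 fold change (DEX and TSA minus DEX alone) on the y axis; red genes rose (5481), blue genes fell (5611), grey genes were not called (6179), and black dots mark named genes. Calls in both directions run over the whole range of levels; the fitted value of AT5G56960, which had 0 counts in each TSA library, depends on the prior count of the fit and is no measured fold.

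Among the 15 largest rises, *EXPA6* (chr2:12431338-12433796 on TAIR10.1), an expansin that loosens cell walls during growth, had 13.4, 11 and 9.35 CPM with TSA, against 0.191, 0.381 and 0.436 CPM without it (log2 fold change 4.99 ± 0.27 (SE), adjusted p = 6.73e-08). *EXPA15*, another expansin, had 8.14, 10.1 and 7.45 CPM with TSA, against 0.383, 0.286 and 0.388 CPM without it (log2 fold change 4.59 ± 0.25 (SE), adjusted p = 7.59e-08). *BZIP34*, a basic leucine zipper transcription factor, had 16.1, 13.9 and 17.43 CPM with TSA, against 0.574, 0.81 and 0.679 CPM without it (log2 fold change 4.49 ± 0.19 (SE), adjusted p = 2.20e-08). In each of these genes all TSA libraries were above 7 CPM and all DEX libraries under 1 CPM. The DEX values rest on few counts: 3, 8 and 9 for *EXPA6*, 6, 6 and 8 for *EXPA15* and 9, 17 and 14 for *BZIP34*. *GATA15*, a zinc finger transcription factor, had 6.03, 5.68 and 7.55 CPM with TSA, against 0.638, 0.286 and 0.339 CPM without it (log2 fold change 3.97). *YUC3*, which encodes an enzyme of auxin biosynthesis, had 6.49, 5.36 and 8.37 CPM with TSA, against 0.574, 0.334 and 0.533 CPM without it (log2 fold change 3.82). *AT1G75060*, annotated as a subunit of a histone deacetylase complex, had 6.89, 6.88 and 5.94 CPM with TSA, against 0.574, 0.572 and 0.145 CPM without it (log2 fold change 3.94). The groups did not overlap in any of them, as the rule for naming asks. DEX counts were low here too, with 10, 6 and 7 for *GATA15*, 9, 7 and 11 for *YUC3* and 9, 12 and 3 for *AT1G75060*.

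*PG2*, a polygalacturonase that cuts pectin, was among the 15 as well and had 39.6, 37.7 and 36.5 CPM with TSA, against 3.7, 2.72 and 2.33 CPM without it (log2 fold change 3.72 ± 0.15 (SE), adjusted p = 1.43e-08). *AT1G05870*, a protein with a DUF1685 domain, had 59.4, 69.2 and 63.5 CPM with TSA, against 4.98, 5.81 and 4.02 CPM without it (log2 fold change 3.7 ± 0.14 (SE), adjusted p = 1.14e-08). *HWS*, a kelch repeat protein, had 10.6, 11 and 8.81 CPM with TSA, against 1.15, 0.429 and 0.776 CPM without it (log2 fold change 3.73). *PIP2;8*, an aquaporin of the plasma membrane, had 7.06, 6.41 and 5.7 CPM with TSA, against 0.766, 0.429 and 0.291 CPM without it (log2 fold change 3.73). The other 5 of the 15 were *AT1G50280* (an NPH3 family protein, with 553 bases of overlap with a gene on the opposite strand), *AT2G38090* (homeodomain-like), *AT3G20015* (aspartyl protease), *AT5G67200* (leucine-rich repeat kinase) and *AT1G06360* (fatty acid desaturase), with log2 fold changes of 4.12, 4.08, 3.84, 3.75 and 3.67.

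The promoters of 3 of these 15 genes held a GAGA repeat (GAGAGAGA on either strand, from 250 bases before to 50 after the annotated start), which 8.5% of the 17151 promoters searched had. Such repeats bind GAGA-binding proteins in plants. The stretches around it upstream of *GATA15* (chr3:2126083-2126170, plus strand) and *PIP2;8* (chr2:7301084-7301167, plus strand) are printed 5′ to 3′ on the strand of the gene from the RefSeq sequence of TAIR10.1, with the repeat in capitals, because the share of promoters with it grew with the size of the rise, as described further on.
GATA15: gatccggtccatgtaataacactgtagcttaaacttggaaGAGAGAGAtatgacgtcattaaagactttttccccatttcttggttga
PIP2;8: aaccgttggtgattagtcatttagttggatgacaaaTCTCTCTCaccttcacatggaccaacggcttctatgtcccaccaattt

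Among the 15 largest falls, *AT5G56960* (chr5:23038389-23041617), annotated as a bHLH DNA-binding protein, had 0, 0 and 0 counts with TSA, against 122, 297 and 269 counts without it, which is at least 73.7-fold lower against 3 counts per library. *AT1G15415*, annotated as a late embryogenesis abundant-like protein, had 0, 0 and 2 counts, against 99, 82 and 121 counts without TSA, or at least 33.9-fold lower; 186 of its bases overlap a gene on the opposite strand. Both were thus clearly expressed without TSA and at or near the limit of detection with it. *AT2G21640*, which the annotation names a marker of the oxidative stress response, had 1.59, 1.79 and 0.779 CPM with TSA, against 57.2, 61 and 67.9 CPM without it (log2 fold change -5.49 ± 0.19 (SE), adjusted p = 1.00e-08). *AT5G24640*, an uncharacterized protein, had 3.24, 3.63 and 2.43 CPM with TSA, against 85.5, 94.9 and 103 CPM without it (log2 fold change -4.93 ± 0.15 (SE), adjusted p = 4.73e-09), and *AT1G13880*, an ELM2 domain protein, had 1.65, 1.94 and 1.95 CPM with TSA, against 38.7, 44.1 and 48 CPM without it (log2 fold change -4.55 ± 0.14 (SE), adjusted p = 5.21e-09). The 3 TSA libraries of each lay close together and the DEX libraries stood more than 10-fold above them.

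Neighbouring glutathione S-transferase genes of the tau class were among the 15 largest falls. These enzymes join glutathione to foreign and oxidized compounds. *GSTU3* had 2.68, 2.1 and 1.02 CPM with TSA, against 56.4, 52.5 and 70.7 CPM without it (log2 fold change -4.97 ± 0.23 (SE), adjusted p = 3.17e-08) and *GSTU4*, which lies next to it on chromosome 2, had 7.0, 5.83 and 4.04 CPM with TSA, against 113, 117 and 155 CPM without it (log2 fold change -4.52 ± 0.19 (SE), adjusted p = 1.99e-08). Reads of such close copies can be assigned to the wrong one or lost in counting; both were lower in every TSA library. *GA20OX5*, a gibberellin 20-oxidase, had 0, 4 and 3 counts with TSA, against 53, 133 and 174 counts without it. *CRK39*, a cysteine-rich receptor kinase, had 0.114, 0.158 and 0.341 CPM with TSA, against 5.17, 9.58 and 8.24 CPM without it (log2 fold change -5.16). *AT1G26420*, annotated as an FAD-binding berberine family protein, spread widely among the TSA libraries, with 0.285, 2.15 and 0.73 CPM with TSA, against 18.9, 31.1 and 37.6 CPM without it (log2 fold change -4.77), and its groups still did not overlap. The last 5 were *AT3G54530* (uncharacterized), *AT5G41680* (protein kinase), *AT5G37490* (ARM repeats), *AT1G24140* (matrixin family) and *AT3G19615* (annotated as a beta-1,4-xylosidase), with log2 fold changes of -5.14, -4.93, -4.84, -4.8 and -4.78.

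Among the 15 largest falls 7 promoters held a W-box (TTGACC on either strand, same window), a form of the sequence that WRKY factors bind, against 1 among the 15 largest rises and 14.5% of all promoters searched. The stretches around it are shown for the first 3 of these genes, with the W-box in capitals: upstream of *AT5G56960* (chr5:23041667-23041752, minus strand), *AT1G15415* (chr1:5301527-5301612, minus strand) and *AT2G21640* (chr2:9254145-9254305, plus strand), where it occurs at 2 places.
AT5G56960: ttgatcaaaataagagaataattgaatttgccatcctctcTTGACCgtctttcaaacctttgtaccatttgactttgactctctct
AT1G15415: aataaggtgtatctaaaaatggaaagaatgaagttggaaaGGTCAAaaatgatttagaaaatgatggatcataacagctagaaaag
AT2G21640: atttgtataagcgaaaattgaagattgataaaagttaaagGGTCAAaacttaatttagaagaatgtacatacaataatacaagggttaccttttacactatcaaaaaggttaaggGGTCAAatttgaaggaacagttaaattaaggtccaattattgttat

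**Figure D2:**
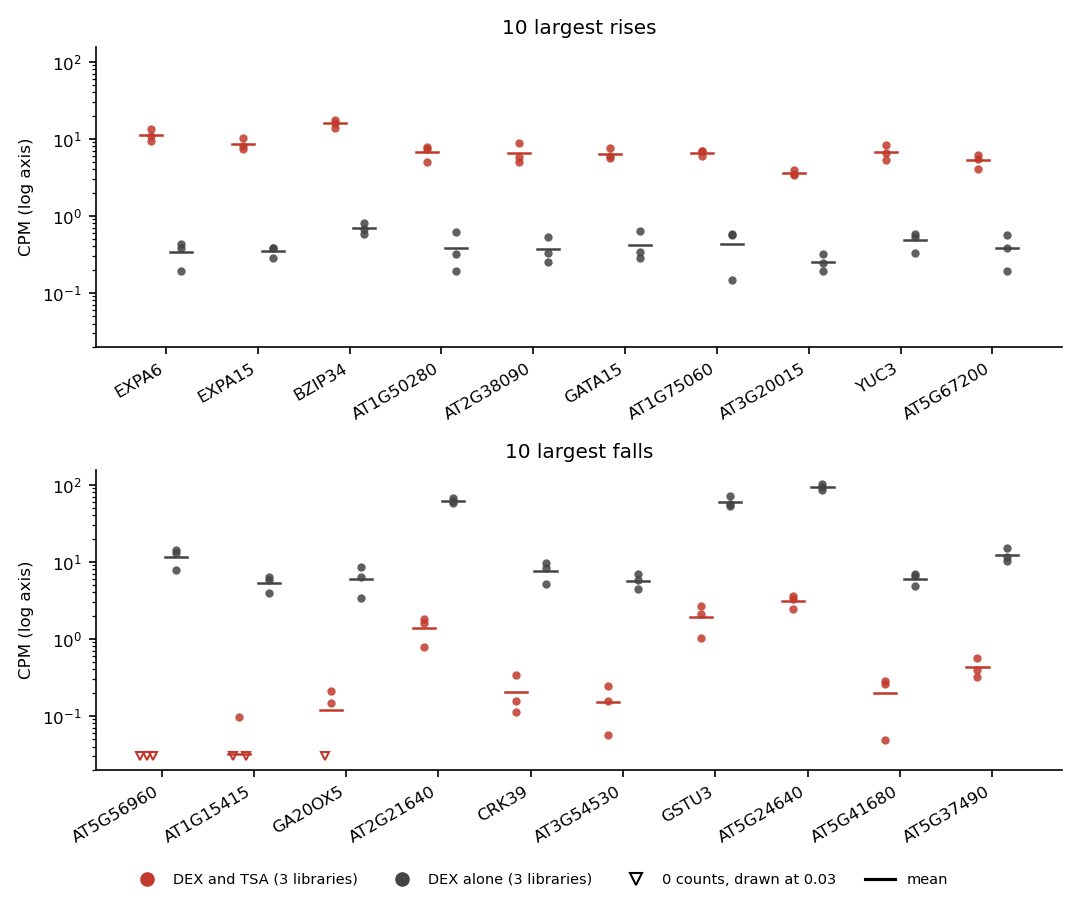
CPM (log axis) of the 10 largest rises (top) and the 10 largest falls (bottom) in each of the 3 libraries with DEX and TSA (red, left of each pair) and the 3 libraries with DEX alone (dark grey); bars are means and open triangles are libraries with 0 counts, drawn at 0.03. The 2 groups do not overlap in any gene, and AT5G56960 has 0 counts in all 3 TSA libraries.

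A small number of genes were detected in one treatment alone, taken as 3 or fewer counts in each library of one group and at least 10 in each library of the other. With TSA alone 15 of 34262 genes were detected (0.0438%), all protein-coding, and without TSA alone 26 genes (0.0759%). *PIN6*, an auxin efflux carrier, had 42, 65 and 55 counts with TSA, against 2, 2 and 2 without it, at least 17.7-fold higher. *SPL9*, a transcription factor of the juvenile-to-adult transition, had 47, 29 and 26 counts, against 3, 1 and 2, at least 11.4-fold higher. *AT1G12380*, *AT3G15650* and *AT5G40150* (a peroxidase) were at least 11.1-fold, 8.31-fold and 7.23-fold higher. On the other side, besides *AT5G56960* and *AT1G15415*, *NHL25*, a relative of the defence gene *NDR1*, had 0, 0 and 0 counts with TSA, against 20, 47 and 78 without it, at least 15.4-fold lower. *AT3G14710* and *AT5G05300* were at least 18.3-fold and 14.6-fold lower. These lists hang on the thresholds, and without DEX replicate 3 the first held 35 genes and without DEX replicate 1 the second held 56.

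Of the 5 genes that gained most CPM, *ASN1*, an asparagine synthetase that is induced when carbon is short, had 7942, 7969.8 and 8494 CPM with TSA, against 3998, 4036 and 4329 CPM without it (log2 fold change 0.98 ± 0.09 (SE), adjusted p = 4.05e-06). *CAT3*, a catalase, had 6790.0, 5720.4 and 6250.4 CPM with TSA, against 4173, 3972 and 3497 CPM without it (log2 fold change 0.69), and *GSTU19*, a tau class glutathione S-transferase, had 5396, 4878 and 5547 CPM with TSA, against 3094, 3278 and 3213 CPM without it (log2 fold change 0.72). The 2 treatments did not overlap in any of these 3 genes. *UBQ3*, a polyubiquitin gene, had 4731, 4484 and 5537 CPM with TSA, against 2765, 3144 and 2934 CPM without it (log2 fold change 0.74). *LHCB1.3*, a chlorophyll a/b-binding protein, overlapped between groups, with 9732, 11634 and 12648 CPM with TSA, against 10012, 8334 and 7203 CPM without it (log2 fold change 0.41 ± 0.14 (SE), adjusted p = 0.0219); it lost its call without TSA replicate 2 or 3, without DEX replicate 2 or 3, under library totals and under a GC and length correction. The genes that lost most were *DIN10* (raffinose synthase family), *PLA2A* (a phospholipase A), *BGAL4* (a beta-galactosidase), *PPDK* (pyruvate orthophosphate dikinase) and *UGT74E2*, which glucosylates the auxin indole-3-butyric acid. *DIN10* had 3251, 3146 and 2680.3 CPM with TSA, against 5079, 5315 and 5901 CPM without it (log2 fold change -0.84). *PLA2A* and *UGT74E2* had log2 fold changes of -1.52 and -1.33, *BGAL4* -1.92 and *PPDK* -0.65.

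Gene lists are described by their members tested. Their counts stand against 31.7% higher and 32.5% lower of all genes tested. A low gene can pass the filter on low counts through the group in which it is high. The counts and medians given are therefore repeated over members with at least 10 counts in every library where they differ by over 1.5 times. Of the 12 listed RPD3-type deacetylases, the class TSA inhibits, 8 were tested, of which 2 rose, 4 fell and 2 were not called (median log2 fold change -0.34, or -0.23 in DESeq2, against 0.00 for all genes tested). This share called, 75%, is near the 64.2% of all genes. *HDA6*, which silences transposons and rRNA genes, had 40.2, 34.5 and 32.3 CPM with TSA, against 19.1, 16.8 and 18.3 CPM without it (log2 fold change 0.98 ± 0.11 (SE), adjusted p = 1.26e-05). *HDA19*, the partner of TOPLESS, had 151, 152 and 130.5 CPM with TSA, against 122, 113 and 103 CPM without it (log2 fold change 0.35 ± 0.10 (SE), adjusted p = 0.0077), but lost this difference when libraries were corrected for GC content and length (log2 fold change -0.01). *HDA9* and *HDA2* fell, with log2 fold changes of -1.02 and -1.11, as did *HDA5* (-0.5) and *HDA14* (-0.46). *HDA15* had 52.2, 55.8 and 53.5 CPM with TSA, against 64.1, 64.1 and 57.9 CPM without it and missed the threshold (adjusted p = 0.0575). Of the 6 HD2 and sirtuin genes (50% called, against 64.2% of all genes), *HD2C* rose (0.4), *HD2A* (-0.42) and *SRT2* (-1.17) fell, and the others were not called. Without TSA replicate 3 or DEX replicate 2, 1 fell.

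The acetyltransferases fell more often than they rose: 7 of 11 tested were lower and 2 higher, with a median of -1.14. Among all genes 32.5% were lower and 31.7% higher. All 4 tested *HAC* genes, relatives of the mammalian coactivator CBP, were lower, among them *HAC5* with 21.3, 25.1 and 23.3 CPM with TSA, against 64.6, 73.3 and 74.4 CPM without it (log2 fold change -1.61 ± 0.10 (SE), adjusted p = 1.72e-07) and *HAC1*, which averaged 52.3 ± 6.66 CPM with TSA and 136 ± 13.1 CPM without it (SD, n = 3 each). *HAG1*, the Arabidopsis GCN5, had 5.35, 5.41 and 5.36 CPM with TSA, against 16.8, 16.2 and 15.5 CPM without it (log2 fold change -1.59 ± 0.12 (SE), adjusted p = 6.16e-07). These groups did not overlap. *HAM2* (-1.14) and *HAM1* (-0.33) were lower too, while *HAG2* had 16.3, 18 and 16.2 CPM with TSA, against 10.8, 15.6 and 10.7 CPM without it (log2 fold change 0.44 ± 0.15 (SE), adjusted p = 0.0246), a call that was lost without TSA replicate 2, without DEX replicate 1 or 3 and under library totals. *HAF2* rose (1.41).

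Of 15 corepressors that bring deacetylases to genes 7 rose and 2 fell (median 0.18, or 0.09 without TSA replicate 2), none by 2-fold. The 60% called lie near the 64.2% of all genes. *TPL* itself had 351, 336 and 298 CPM with TSA, against 349.6, 405 and 365 CPM without it, overlapping groups and no call (adjusted p = 0.114), whereas its relatives *TPR4*, *TPR3*, *TPR1* and *TPR2* rose with log2 fold changes of 0.9, 0.74, 0.63 and 0.52. *TPR4* and *TPL* overlap genes on the opposite strand by 464 and 103 bases. *LUG*, another Groucho-type corepressor, rose (0.89) and its adaptor *SEU* fell (-0.7). Scaled by library totals, 5 members of this list fell in place of 2.

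Genes of the Polycomb and trithorax groups, which set or read methylation of histone H3, fell in 7 of 15 cases and rose in 3 (median -0.23). The 66.7% called lie near the 64.2% of all genes. *VRN5*, which helps Polycomb silence *FLC* in the cold, had 1.99, 1.58 and 1.85 CPM with TSA, against 6.51, 6.67 and 6.88 CPM without it (log2 fold change -1.89 ± 0.18 (SE), adjusted p = 4.11e-06). *LHP1*, a reader of the Polycomb mark, and *VRN2* fell by 0.75 and 0.92 on the log2 scale, and *ATX1*, a trithorax methyltransferase, was higher (1.03). *FLC*, a Polycomb target, had 15.1, 11.9 and 20.4 CPM with TSA, against 11, 14.2 and 13.7 CPM without it, with overlapping groups (adjusted p = 0.191), and is overlapped over 6067 bases by transcripts of the opposite strand. Genes of DNA methylation and small RNA pathways rose in 11 of 20 cases and fell in 2 (median 0.48), among them *AGO1* with 319 ± 24 CPM with TSA and 183 ± 17.55 CPM without it (SD, n = 3 each; 0.8), *ROS1* (0.8), a DNA demethylase, and *NRPE1* (0.99), the largest subunit of RNA polymerase V. The 2 that fell were the CHG methylation pair *CMT3* (-1.36) and *KYP* (-0.93), a DNA and a histone methyltransferase, and 7 were not called. The 65% called lie near the 64.2% of all genes.

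Histone genes rose together. Of 45 genes annotated as histones or histone superfamily proteins 33 were tested, 28 of these rose, none fell and 5 were not called (median 1.44), against 31.7% and 32.5% of all genes. Their summed level was 1963 to 2338 CPM with TSA, against 908 to 1104 CPM without it. *AT5G59970*, annotated as a histone superfamily protein, had 5.92, 6.2 and 5.11 CPM with TSA, against 0.829, 0.381 and 0.339 CPM without it (log2 fold change 3.52 ± 0.30 (SE), adjusted p = 1.40e-06). *HTB11*, an H2B gene, averaged 124 ± 0.836 CPM with TSA and 20.8 ± 1.69 CPM without it, *HTA13*, an H2A gene, averaged 20.7 ± 3.99 CPM with TSA and 2.71 ± 0.885 CPM without it, and *HIS1-3*, a linker histone, averaged 88.9 ± 11.8 CPM with TSA and 46.3 ± 7.73 CPM without it (SD, n = 3 each). Many histone genes are near-identical copies, so the division of reads between them is uncertain, and poly(A) selection captured these transcripts as plant histone mRNAs carry poly(A) tails.

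Cell cycle genes rose in 16 of 23 cases, with 1 lower (median 0.99), against 31.7% and 32.5% of all genes. D-type cyclins promote entry into the cell cycle: *CYCD3;1* had 26.7, 29 and 23.2 CPM with TSA, against 6.51, 3.57 and 1.94 CPM without it (log2 fold change 2.75 ± 0.29 (SE), adjusted p = 7.13e-06), and *CYCD3;3*, *CYCD1;1*, *CYCD2;1* and *CYCD3;2* rose by 2.67, 1.72, 1.17 and 0.99 on the log2 scale. Inhibitors of cyclin-dependent kinases rose as well, *KRP7* by 2.75, *KRP2* by 2.17, *KRP3* by 1.95 and *KRP6* by 1.91. The mitotic cyclins *CYCB1;1*, *CYCB1;2* and *CYCB1;3* were too low to be tested; *CYCB1;1* had 0.512, 0.578 and 0.292 CPM with TSA, against 0.447, 0.619 and 0.485 CPM without it. *E2FC* was the one member lower (log2 fold change -0.34 ± 0.13 (SE), adjusted p = 0.0326), and it lost its call without TSA replicate 1 or 3, without DEX replicate 2 or 3, in DESeq2 and under the GC and length correction.

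Auxin binds TIR1/AFB receptors, which then have the Aux/IAA repressors degraded, and this frees ARF transcription factors; Aux/IAA proteins repress through TOPLESS. Genes of nearly every step were higher with TSA. Of 6 receptors 5 rose and none fell (median 1.11), against 31.7% and 32.5% of all genes. *AFB1* had 71.6, 58 and 49 CPM with TSA, against 18.9, 15.2 and 9.55 CPM without it (log2 fold change 2.04 ± 0.21 (SE), adjusted p = 6.81e-06), with 423 bases of opposite-strand overlap, and *TIR1* had 138, 125 and 123 CPM with TSA, against 64.1, 57 and 51.2 CPM without it (log2 fold change 1.17 ± 0.10 (SE), adjusted p = 1.89e-06). *AFB5* averaged 32.3 ± 3.74 CPM with TSA and 27 ± 2.84 CPM without it (SD, n = 3 each) and was not called. Of 10 tested carriers 9 rose (median 1.61): the efflux carrier *PIN3* averaged 217 ± 4.38 CPM with TSA and 41.6 ± 4.47 CPM without it and the influx carrier *AUX1* averaged 197 ± 28.2 CPM with TSA and 41.6 ± 9.38 CPM without it (SD, n = 3 each). *LAX3* was the carrier that did not pass the test (0.13).

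ARF genes rose in 10 of 14 cases and none fell (median 1.18), against 31.7% and 32.5% of all genes. However, 1 fell under library totals, in the fit of all 12 libraries and under the GC and length correction. *ARF18* had 35.6, 39 and 37.3 CPM with TSA, against 6.38, 7.53 and 5.96 CPM without it (log2 fold change 2.49 ± 0.12 (SE), adjusted p = 3.17e-08), and *ARF10*, *ARF8* and *ARF17*, targets of microRNAs, rose by 2.46, 2.32 and 2.21. *MP* (*ARF5*), the activator of organ initiation, had 18.3, 18.5 and 13 CPM with TSA, against 9.25, 8.53 and 5.96 CPM without it (log2 fold change 1.07 ± 0.18 (SE), adjusted p = 3.44e-04). *ARF7*, *ARF3*, *ARF2* and *ARF16* were not called. Aux/IAA genes split, with 14 of 23 higher and 4 lower (median 0.58): *IAA11* had 12.7, 12.9 and 12 CPM with TSA, against 2.93, 2.0 and 1.7 CPM without it (log2 fold change 2.53 ± 0.19 (SE), adjusted p = 6.04e-07), *IAA14* rose by 1.49 and *IAA3* by 1.33, and *IAA20* (-1.34), *IAA10* (-0.93), *IAA28* (-0.76) and *IAA2* (-0.24) fell.

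Targets at the end of the pathway differed by family. GH3 enzymes couple hormones to amino acids and most are induced by auxin. Of 7 tested 6 rose and none fell (median 2.00), against 31.7% and 32.5% of all genes. *GH3.6* had 91.7, 90.8 and 84.3 CPM with TSA, against 14.7, 12.4 and 5.87 CPM without it (log2 fold change 3.03 ± 0.24 (SE), adjusted p = 7.71e-07), and *GH3.5* averaged 1311 ± 129.7 CPM with TSA and 328 ± 24 CPM without it (SD, n = 3 each). *JAR1*, which acts on jasmonate, rose as well (2.14). SAUR genes, small auxin-induced growth regulators, went both ways: of 27 tested out of 78 listed, 12 rose and 10 fell, with fitted values from -4.16 for *SAUR55* to 3.63 for *SAUR16*. *SAUR16* had 19, 11 and 11 counts with TSA, against 1, 1 and 1 without it, so its fitted value depends on the prior count and is no measured fold. *SAUR55* had 0.512, 1.58 and 1.12 CPM with TSA, against 19.8, 13.1 and 25.5 CPM without it (log2 fold change -4.16 ± 0.32 (SE), adjusted p = 7.78e-07), and *SAUR49* had 5.75, 5.15 and 5.89 CPM with TSA, against 0.893, 1.0 and 1.41 CPM without it (log2 fold change 2.33 ± 0.22 (SE), adjusted p = 4.05e-06). The 51 SAUR genes left were not tested for low counts. The median of 0.25 was not stable. It was 0.70 without DEX replicate 3, 0.56 without DEX replicate 1, 0.58 and 0.40 without TSA replicates 3 and 2, and 0.10 over the 12 genes with at least 10 counts in every library, of which 4 rose and 5 fell.

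Type-A response regulators of the cytokinin pathway rose. They are induced by cytokinin and dampen its signal. All 7 tested rose at least 2-fold (median 2.27), against 13.9% of all genes, and 3 more were too low. *ARR7* had 20.6, 21.2 and 22.6 CPM with TSA, against 2.62, 2.95 and 2.08 CPM without it (log2 fold change 3.07 ± 0.15 (SE), adjusted p = 3.71e-08). *ARR5* averaged 8.16 ± 0.944 CPM with TSA and 1.06 ± 0.674 CPM without it and *ARR4* averaged 40.9 ± 3.51 CPM with TSA and 6.87 ± 1.35 CPM without it (SD, n = 3 each). Other cytokinin genes (receptors, type-B regulators, oxidases) rose in 6 of 11 cases and none fell, led by the receptor *AHK4* (1.57). In DESeq2, and with any library but DEX replicate 2 left out, 1 fell.

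Brassinosteroid genes rose in 8 of 12 cases and 1 fell (median 0.65, or 0.99 in DESeq2), against 31.7% and 32.5% of all genes. The receptor *BRI1* had 302, 261 and 289.8 CPM with TSA, against 57.8, 51.3 and 46.5 CPM without it (log2 fold change 2.46 ± 0.11 (SE), adjusted p = 2.29e-08), and the transcription factors *BES1* and *BZR1* rose by 1.94 and 1.46; *IBH1*, a bHLH that opposes elongation, fell (-1.59). Of 12 tested gibberellin genes 5 rose and 4 fell (median 0.36, or 0.23 with at least 10 counts in every library). This median was 0.10 without TSA replicate 1 and 0.20 without DEX replicate 3. *GA2OX2*, which inactivates gibberellin, had 58.2, 46.7 and 54.4 CPM with TSA, against 11.5, 8.43 and 7.27 CPM without it (log2 fold change 2.56 ± 0.16 (SE), adjusted p = 1.43e-07), the DELLA repressor *GAI* averaged 31.4 ± 1.07 CPM with TSA and 9.85 ± 3.53 CPM without it (SD, n = 3 each), and the biosynthetic *GA3OX1* had 1.48, 1.58 and 2.24 CPM with TSA, against 0.319, 0.524 and 0.824 CPM without it (log2 fold change 1.63 ± 0.36 (SE), adjusted p = 0.00211). The receptors *GID1B* (-0.56) and *GID1C* (-0.65) and *GA2OX6* (-0.72) fell.

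Abscisic acid genes rose in 11 of 20 cases and fell in 2 (median 0.57, with 65% called against 64.2% of all genes). Under library totals 4 fell. Both synthesis and breakdown were represented: *NCED3*, which commits carotenoids to abscisic acid, had 7.57, 5.99 and 8.13 CPM with TSA, against 1.59, 1.52 and 1.21 CPM without it (log2 fold change 2.33 ± 0.21 (SE), adjusted p = 2.39e-06), the catabolic *CYP707A1* and *CYP707A3* rose by 2.29 and 1.95, and *AAO3*, the last enzyme of synthesis, fell (-1.14). Ethylene genes split, 5 higher and 7 lower of 18 (median 0.04, or -0.06 with at least 10 counts in every library). The 66.7% called lie near the 64.2% of all genes. *CTR1*, the kinase that holds the pathway off, had 228, 216 and 194 CPM with TSA, against 690.1, 607 and 628 CPM without it (log2 fold change -1.59 ± 0.10 (SE), adjusted p = 1.39e-07); *ERS2*, a receptor, had 94.5, 74.5 and 61.5 CPM with TSA, against 33.9, 25.8 and 22.6 CPM without it (log2 fold change 1.49 ± 0.17 (SE), adjusted p = 1.65e-05). Of jasmonate genes 4 rose and 4 fell among 16, with *OPR3* of jasmonate synthesis lower (-1.4) and the receptor gene *COI1* higher (1.33). The 50% called stand against 64.2% of all genes.

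In the WRKY family, whose members act mostly in defence and senescence, 24 of 44 tested fell and 12 rose (median -0.49), against 32.5% and 31.7% of all genes. *WRKY63* had 0.626, 1.84 and 0.682 CPM with TSA, against 13.8, 16.8 and 21.4 CPM without it (log2 fold change -4.04 ± 0.31 (SE), adjusted p = 6.66e-07). *WRKY30*, *WRKY75* and *WRKY45* fell by 3.41, 2.47 and 2.27 on the log2 scale, and the abundant *WRKY25* averaged 139 ± 1.08 CPM with TSA and 480.4 ± 64 CPM without it (SD, n = 3 each). Some went the other way: *WRKY40* averaged 368 ± 55 CPM with TSA and 247 ± 14.4 CPM without it and *WRKY57* had 5.58, 5.62 and 6.04 CPM with TSA, against 2.36, 2.91 and 2.86 CPM without it (log2 fold change 1.08). Of 14 salicylate and immunity genes 5 fell and 3 rose, against 32.5% and 31.7% of all genes. Their median was 0.04, or 0.06 with at least 10 counts in every library. Its sign turned under library totals and without TSA replicate 1 or DEX replicate 1. *PAD3*, which makes the phytoalexin camalexin, had 0.74, 0.841 and 0.195 CPM with TSA, against 2.49, 2.91 and 5.87 CPM without it (log2 fold change -2.69 ± 0.46 (SE), adjusted p = 3.33e-04), the salicylate receptor *NPR1* averaged 31.5 ± 1.01 CPM with TSA and 83.1 ± 3.51 CPM without it, and *FLS2*, the flagellin receptor, was lower (-0.94), while *EDS1* was higher (0.81).

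Heat shock genes fell in 13 of 23 cases and rose in 3 (median -0.6, or -0.90 without TSA replicate 3), against 32.5% and 31.7% of all genes. The falls lay in small heat shock proteins and several heat shock factors. Summed over the 24 listed genes the level was higher with TSA, at 8410 to 9030 CPM against 6970 to 8294 CPM without it. *HSFA2*, a factor that sustains the heat response, had 17.9, 14.4 and 16.4 CPM with TSA, against 48.4, 65.9 and 61 CPM without it (log2 fold change -1.85 ± 0.13 (SE), adjusted p = 3.78e-07). *ATHSP22.0* had 0.455, 0.263 and 0.73 CPM with TSA, against 4.08, 4.43 and 5.48 CPM without it (log2 fold change -3.24 ± 0.32 (SE), adjusted p = 4.32e-06), *HSP17.6A* averaged 90.3 ± 9.85 CPM with TSA and 428 ± 80.4 CPM without it and *HSP17.4* averaged 8.72 ± 1.54 CPM with TSA and 42.1 ± 2.75 CPM without it (SD, n = 3 each). The large chaperones did not follow: *HSP70-1* and *HSP70* rose by 0.82 and 0.45, and *HSP101* (0.2) and *HSP90.1* (-0.26) were not called. *HSFA3* rose (0.82), with 486 bases of opposite-strand overlap.

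Heat shock factors bind short repeats in alternating orientation, searched here as GAANNTTC. This unit was present in the promoters of 5 of the 13 heat shock genes that fell, 1 of the 3 that rose and 2 of the 7 not called, and in 11.5% of all promoters searched. It is shown in capitals for *HSP17.4* (chr3:16984868-16985006, minus strand), *HSFA2* (chr2:11135496-11135623, plus strand) and *HSFA7A* (chr3:19264914-19265051, plus strand, log2 fold change -0.9), each of which holds it at 2 places upstream of the start.
HSP17.4: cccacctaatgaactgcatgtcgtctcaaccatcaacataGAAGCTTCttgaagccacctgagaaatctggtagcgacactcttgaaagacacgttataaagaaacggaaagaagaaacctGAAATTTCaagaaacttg
HSFA2: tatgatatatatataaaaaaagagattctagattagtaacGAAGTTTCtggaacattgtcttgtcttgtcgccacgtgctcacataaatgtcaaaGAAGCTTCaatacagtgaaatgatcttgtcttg
HSFA7A: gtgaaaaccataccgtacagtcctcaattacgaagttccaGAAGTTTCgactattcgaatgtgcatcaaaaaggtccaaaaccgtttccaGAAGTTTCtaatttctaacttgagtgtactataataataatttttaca

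Oxidative stress genes were divided within families, with 12 of 31 higher and 11 lower (median -0.07). Tau class transferases made up both ends: besides *GSTU3* and *GSTU4*, *GSTU9*, *GSTU24* and *GSTU1* fell by 2.98, 2.85 and 2.68 on the log2 scale, and *GSTU20* had 5.63, 7.1 and 6.18 CPM with TSA, against 2.36, 0.81 and 1.21 CPM without it (log2 fold change 2.16 ± 0.30 (SE), adjusted p = 7.49e-05). Peroxide scavengers rose, *APX1* with 1436 ± 199 CPM with TSA and 695 ± 62.2 CPM without it and *CAT2* with 1840.3 ± 77 CPM with TSA and 1127 ± 115 CPM without it (SD, n = 3 each), and *OXI1*, a kinase that peroxide induces, fell (-2.25). Of 14 touch-response genes, which handling of seedlings induces within minutes, 5 rose and 3 fell: *TCH3* (0.67), *TCH2* (1.89) and *RRTF1* (1.93, 661 bases of opposite-strand overlap) were higher and *ERF104* (-1.01) and *ZAT10* (-0.84) lower. Under library totals 5 fell. Of 13 hypoxia genes 5 rose and 3 fell, with *HRE2*, an ethylene response factor of hypoxia, lower (-2.34) and *SRO5* higher (1.64). Without TSA replicate 2 or DEX replicate 2 the rises numbered 3. Called were 74.2% of the oxidative stress, 57.1% of the touch and 61.5% of the hypoxia genes, near the 64.2% of all genes.

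In the circadian clock, morning genes were higher and several evening genes lower. The labels give no clock time of harvest. Among all genes 31.7% rose and 32.5% fell. Of 12 morning genes 10 rose and none fell (median 0.68): *CCA1* had 62, 78.5 and 70.5 CPM with TSA, against 32.5, 37.6 and 36 CPM without it (log2 fold change 0.99 ± 0.11 (SE), adjusted p = 1.01e-05), *LHY* had 3.76, 4.1 and 3.85 CPM with TSA, against 1.98, 2.19 and 1.55 CPM without it (log2 fold change 1.03 ± 0.21 (SE), adjusted p = 0.00119) and *PRR9* had 49.1, 54.3 and 53 CPM with TSA, against 21.7, 28.7 and 28.3 CPM without it (log2 fold change 0.99 ± 0.12 (SE), adjusted p = 1.79e-05). *LNK3* changed most, with 47.9, 42.2 and 52.6 CPM with TSA, against 5.68, 6.34 and 6.3 CPM without it (log2 fold change 2.96 ± 0.12 (SE), adjusted p = 1.46e-08). Of 12 evening genes 3 rose and 7 fell (median -0.45): the photoreceptor *FKF1* had 14.3, 14.1 and 13.2 CPM with TSA, against 41.5, 35.4 and 40.04 CPM without it (log2 fold change -1.49 ± 0.10 (SE), adjusted p = 3.01e-07) and *LUX* fell (-0.52), but *TOC1* had 195, 180.4 and 183 CPM with TSA, against 138, 132 and 132 CPM without it (log2 fold change 0.48 ± 0.08 (SE), adjusted p = 3.37e-04) and *GI* (0.4) and *CHE* (1.34) rose. With library totals 1 morning gene fell.

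Genes of the chloroplast rose nearly as a block. Of 37 nuclear photosynthesis genes 35 rose and none fell, against 31.7% and 32.5% of all genes. Their median was 0.58, and 4 reached 2-fold. Under library totals 1 fell. *LHCB2.3* had 71.8, 104 and 87.3 CPM with TSA, against 12.5, 12.8 and 11.5 CPM without it (log2 fold change 2.84 ± 0.14 (SE), adjusted p = 3.92e-08; 595 bases of opposite-strand overlap), and *LHCA4* averaged 5313 ± 723 CPM with TSA and 3599 ± 348 CPM without it and *RBCS1A* averaged 1863 ± 90.2 CPM with TSA and 1219 ± 181 CPM without it (SD, n = 3 each). Of 16 chlorophyll synthesis genes and their regulators 15 rose (median 1.13). *GNL*, a GATA factor that promotes greening, had 26.9, 26.5 and 28.5 CPM with TSA, against 2.62, 3.43 and 2.04 CPM without it (log2 fold change 3.33 ± 0.16 (SE), adjusted p = 3.92e-08), *HEMA1*, the first committed enzyme of tetrapyrrole synthesis, had 171, 191 and 217 CPM with TSA, against 98.3, 94 and 82.7 CPM without it (log2 fold change 1.07 ± 0.11 (SE), adjusted p = 5.55e-06), and *GLK1* and *GLK2*, activators of chloroplast genes, rose by 1.43 and 1.66. Light signaling genes split, 9 higher and 8 lower of 21. *HY5*, the activator of light-grown development, had 58.5, 48.8 and 58.8 CPM with TSA, against 16.3, 18.5 and 15.8 CPM without it (log2 fold change 1.71 ± 0.11 (SE), adjusted p = 2.04e-07), *HFR1*, a bHLH factor of light signaling, rose (1.72), and *BBX22* had 121, 107 and 124 CPM with TSA, against 379.9, 421 and 419 CPM without it (log2 fold change -1.79 ± 0.10 (SE), adjusted p = 5.83e-08).

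Markers of cell types and organs moved mostly upward, while 31.7% of all genes rose and 32.5% fell. Of 11 tested meristem regulators 8 rose and none fell, and their summed level was 178 to 213 CPM with TSA, against 52.4 to 81.8 CPM without it. *KNAT2*, a homeobox gene of the meristem, had 10.6, 7.62 and 7.89 CPM with TSA, against 1.15, 1.72 and 1.65 CPM without it (log2 fold change 2.51 ± 0.22 (SE), adjusted p = 1.88e-06), *STM* had 6.66, 4.94 and 4.82 CPM with TSA, against 3.13, 1.67 and 1.89 CPM without it (log2 fold change 1.32 ± 0.25 (SE), adjusted p = 7.83e-04), and the receptor *CLV1* averaged 74.9 ± 7.51 CPM with TSA and 18.5 ± 2.42 CPM without it (SD, n = 3 each); *WUS* was not called (-0.07). Of 11 stomatal lineage genes 10 rose and none fell (summed 193 to 211 CPM, against 61.7 to 100.3 CPM), with the receptor kinase *ERL2* at 25.6, 25.6 and 20.5 CPM with TSA, against 6.25, 5.24 and 2.91 CPM without it (log2 fold change 2.33 ± 0.22 (SE), adjusted p = 2.84e-06). Of 8 epidermal patterning genes 7 rose (summed 146 to 157 CPM, against 81.5 to 103 CPM): *CPC*, which promotes root hairs, had 4.5, 3.84 and 5.31 CPM with TSA, against 2.17, 1.38 and 1.21 CPM without it (log2 fold change 1.54 ± 0.25 (SE), adjusted p = 2.54e-04), and *GL2*, which specifies hairless cells, had 23.4, 22.8 and 25.7 CPM with TSA, against 14.7, 13.8 and 6.79 CPM without it (log2 fold change 1.03 ± 0.22 (SE), adjusted p = 0.0015). The part of a shift in cell numbers in these values was not tested.

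Regulators of embryos and flowers stayed near the limit of detection in part. *LEC1*, the embryo regulator, had 0, 0 and 0 counts with TSA, against 2, 0 and 4 without it, *AG*, the floral homeotic gene, had 1, 0 and 0 against 0, 0 and 0, and *ABI3* had 7, 12 and 0 against 2, 1 and 3. None was testable at this depth. Of 22 seed genes 5 were tested and 3 rose, led by *WRI1*, an activator of oil synthesis, with 38.8, 48.6 and 44.6 CPM with TSA, against 10.2, 12.1 and 11.7 CPM without it (log2 fold change 1.95 ± 0.12 (SE), adjusted p = 1.25e-07). With at least 10 counts in every library 1 rose, and the median was -0.33 in place of 1.36 (0.79 without TSA replicate 2). In *WUS-GR* 1 of the 5 rose and 4 fell (median -1.40). Of 16 tested flowering genes 6 rose and 1 fell: *LFY*, the floral meristem regulator, rose by 1.96, *SVP*, a repressor of flowering, had 133, 116 and 144 CPM with TSA, against 57.6, 51.3 and 52.1 CPM without it (log2 fold change 1.29 ± 0.10 (SE), adjusted p = 8.65e-07), and *MAF3* fell (-0.59).

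Many cell wall and surface genes rose. Of 33 tested expansin and XTH genes, which loosen or rejoin wall polymers, 19 rose, 18 of them at least 2-fold, and 2 fell (median 1.49). Over the 24 with at least 10 counts in every library 12 rose and the median was 0.62. *EXPA1* averaged 25.9 ± 10.6 CPM with TSA and 2.67 ± 0.367 CPM without it and *XTH9* averaged 56.7 ± 3.61 CPM with TSA and 6.98 ± 1.73 CPM without it (SD, n = 3 each). The 2 that fell were *XTH30* (-1.03) and *XTH25* (-0.65), and the fall of *XTH30* rested on a wide DEX group, with 52.2, 52.5 and 32.6 CPM with TSA, against 67.4, 81.5 and 130.0 CPM without it. Without DEX replicate 1, 4 members fell. Wax and cutin genes rose in 9 of 10 cases and 1 fell (median 0.86), led by their regulator *MYB96*, with 41.5, 52.9 and 70.7 CPM with TSA, against 14.6, 17.5 and 23.3 CPM without it (log2 fold change 1.57 ± 0.20 (SE), adjusted p = 3.32e-05).

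Of 27 proteasome subunits 6 rose and 4 fell (median 0.03; 7 and 8 fell under library totals and the GC and length correction, and 2 without DEX replicate 1). *RPN10* rose (0.81) and *RPN6* alone passed 2-fold, with 48.7, 49 and 48.9 CPM with TSA, against 115, 122 and 124 CPM without it (log2 fold change -1.3 ± 0.08 (SE), adjusted p = 1.84e-07). Of 283 genes annotated as ribosomal proteins, organellar ones and related folds included, 100 fell and 59 rose (median -0.1), most by under 2-fold; with library totals 39 rose and the median was -0.19. The largest changes were those of *AT2G40010* (1.69, 1185 bases of opposite-strand overlap) and *AT1G14205* (-2.87). Nitrate and nitrogen genes split, 7 higher and 5 lower of 16, with the nitrate transporter *NRT1.7* at 30.1, 27.7 and 33.5 CPM with TSA, against 129, 141 and 143 CPM without it (log2 fold change -2.18 ± 0.10 (SE), adjusted p = 2.93e-08) and the repressor *LBD39* higher (1.55). Glucosinolate genes were likewise split (3 higher, 4 lower of 10, or 2 lower without TSA replicate 3 or DEX replicate 3), with *MYB28* of the aliphatic branch higher (1.57) and *CYP83B1* of the indolic branch lower (-1.1). Called were 37.0% of the proteasome, 56.2% of the ribosomal, 75% of the nitrate and 70% of the glucosinolate genes. Among all genes 64.2% were called, 31.7% higher and 32.5% lower. Of 19 flavonoid genes 6 were tested, of which *CHI* of flavonoid synthesis rose (1.36) and *MYBL2*, a repressor of the pathway, fell (-0.94). *CHS* had 0.0569, 0.683 and 0.438 CPM with TSA, against 0.319, 0.238 and 0.436 CPM without it and was not tested.

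Transcripts encoded in the organelles were rare in these poly(A)-selected libraries, 0.143% to 0.170% of counts from the plastid with TSA and 0.0778% to 0.148% without it. Of 89 tested plastid genes 38 rose and none fell, and of 23 mitochondrial genes 16 rose and none fell, with medians of 0.63 and 0.85, led by *ATCG01130* (1.4) and *ATMG00110* (1.2) among those at the level the naming rule asks. The plastid count was set by single libraries: it was 21 without DEX replicate 2 and 67 without DEX replicate 3, and 3 in the fit of all 12 libraries. Organellar RNA enters such libraries by incomplete selection, and the part of this in the result was not tested. Of 249 tested non-coding RNA genes 54 rose and 55 fell (33 with at least 10 counts in every library), fewer in proportion than among all genes. *AT1G46554* rose (log2 fold change 2.18 ± 0.25 (SE), adjusted p = 1.42e-05) and *AT4G40065* fell (log2 fold change -3.65 ± 0.38 (SE), adjusted p = 7.58e-06; 249 bases of opposite-strand overlap).

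**Figure D3:**
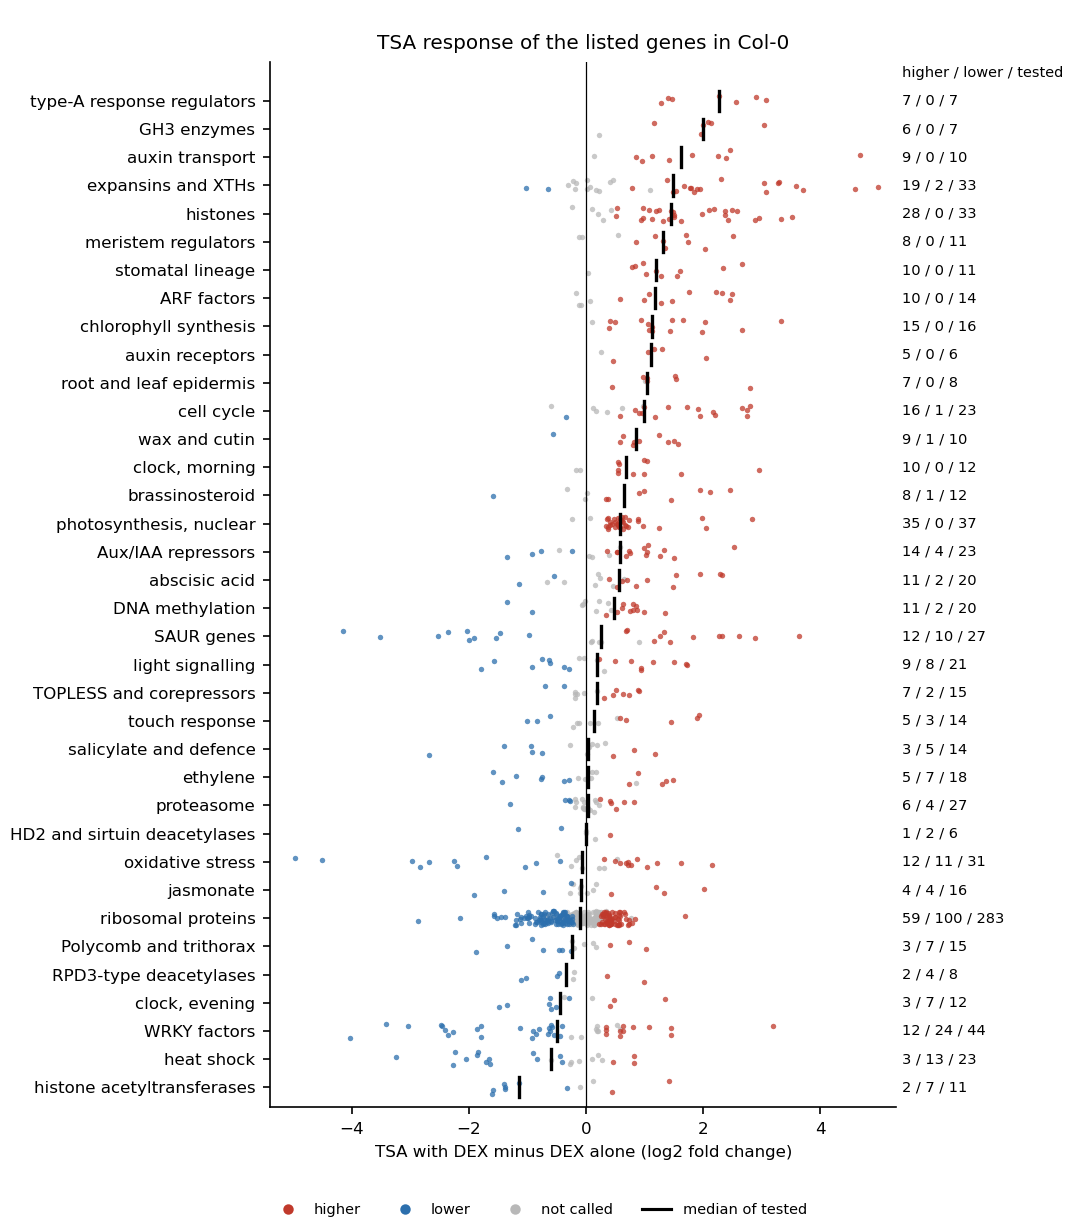
Log2 fold change (DEX and TSA minus DEX alone) of the tested members of 36 gene lists in Col-0, sorted by median (black bars). Red points rose, blue points fell and grey points were not called; the numbers at the right give members higher, lower and tested. Type-A response regulators, GH3 enzymes and auxin carriers lie at the top with 7 of 7, 6 of 7 and 9 of 10 higher, and acetyltransferases at the bottom with 7 of 11 lower.

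The direction of the response was related to the level of a gene without TSA. Level was taken from the DEX libraries of *WUS-GR*, which are not part of the comparison, and genes were divided by it into 5 bins of equal size. In the lowest bin, with a median of 0.921 CPM, 35.7% of genes rose and 18.4% fell, with a median log2 fold change of 0.35. In the middle bin 29% rose and 39% fell, and in the highest 34.6% and 33.6%. A low gene passes the filter on low counts more easily where TSA raises it, which bears on the lowest bin. GC content was related to direction as well. The bin richest in GC (median 44%) had 39.7% higher and 26.1% lower genes and a median of 0.15. The poorest bin (median 37.9%) had 28.5% and 33.8%. Short genes (median exonic length 956 bases) were higher less often, 23.55% against 33.9% of the bin with the longest. The number of exons made no visible difference, with 30.7% higher among genes with the fewest and 32.1% among those with the most.

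Promoters of genes that rose and fell differed in the motifs they held. The W-box was found in 24.4% of the 577 promoters of genes that fell at least 4-fold, 17.8% of all genes that fell, 12.5% of those that rose and 14.5% of all searched. The heat shock element followed the same order, with 19.9%, 12.5%, 9.7% and 11.5%, and so did the GCC box (GCCGCC), to which ethylene response factors bind, with 4.85%, 4.12%, 1.77% and 2.86%. The reverse order held for the GAGA repeat, found in 15.1% of the 549 promoters of genes that rose at least 4-fold, 10.2% of all that rose, 7.06% of those that fell and 8.52% of all. The G-box (CACGTG), bound by light and clock factors, was in 11.6% of promoters of genes that rose and 7.91% of those that fell. It was in 9.24% of all, and its share did not grow with the size of the rise. Of the genes that rose at least 4-fold 9.65% held it, and 7.28% of those that fell at least 4-fold. The auxin element (TGTCTC) was in 16.9% of the rises and 11.1% of the falls of at least 4-fold. Over all rises and all falls it was in 14.001% and 12.03%, against 13.4% of all searched. Motifs of growth and ribosome genes, site II (TGGGCC) and the telo box (AAACCCTA), were scarcest in both extremes, at 8.74% and 12.8% against 19.8% of all for site II, and 2.37% and 2.95% against 5.49% for the telo box. Little difference was seen for the evening element (AAAATATCT), CCAAT, the GATA box (GATAA), the MYB core (TAACTG) and the TATA box (TATAAA), as with 3.01% of rises and 3.48% of falls for the evening element. All motifs were searched on both strands, some can overlap, and no test was made, so a match is a description of the letters and not a binding site.

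**Figure D4:**
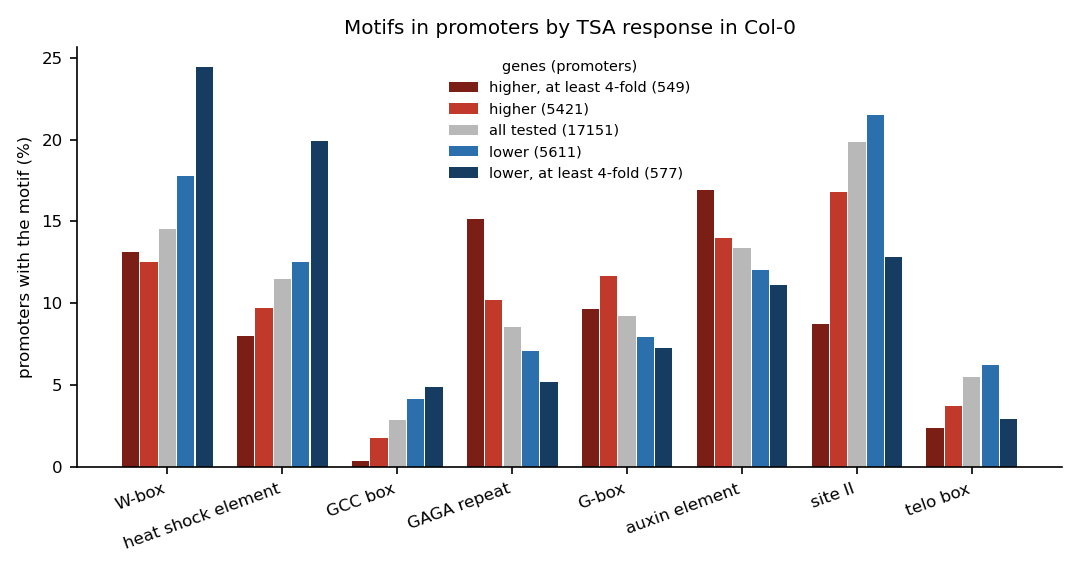
Share of promoters (%) with a motif, for genes that rose at least 4-fold (549), all genes that rose (5421), all searched (17151), all that fell (5611) and those that fell at least 4-fold (577); the 4-fold groups are part of the larger ones. W-box, heat shock element and GCC box are more frequent the stronger the fall (24.4%, 19.9% and 4.85% at 4-fold), and the GAGA repeat the stronger the rise (15.1%).

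The same treatment was available in *WUS-GR* seedlings, whose libraries are separate samples. In these seedlings DEX activates WUSCHEL, so an effect of TSA alone and one on the action of WUSCHEL cannot be told apart. There 6077 of 17079 genes rose (35.6%) and 6502 fell (38.1%). Of the 5481 genes higher in Col-0, 4153 were also higher in *WUS-GR*, 75.8% of the Col-0 list and 68.3% of the *WUS-GR* list, and 213 were lower. Of the 5611 genes lower in Col-0, 4362 were also lower (77.7% of the Col-0 list and 67.1% of the *WUS-GR* list) and 311 higher. The overlap depended on the scaling. Under library totals 60.6% of the genes higher in Col-0 were higher in *WUS-GR*, and 88.2% of the genes lower in Col-0 were lower. With TMM scaling, median sizes were close. Genes higher in Col-0 and tested in both had a median log2 fold change of 0.83 in *WUS-GR* and 0.87 in Col-0. Genes lower in Col-0 had -0.86 and -0.87. Among the extremes, *AT2G21640* fell in both (-4.25 in *WUS-GR* and -5.49 in Col-0), *EXPA6* rose in both (4.64 and 4.99) and *GSTU4* fell in both (-4.32 and -4.52). Not every extreme followed: *AT1G06360* was not called in *WUS-GR* (0.44 there and 3.67 in Col-0). *YUC3*, *AT1G15415* and *GA20OX5* were not tested in *WUS-GR*.

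The size of the effect was not the same for every gene. An interaction term over all 12 libraries was past the threshold for 5560 of 17915 genes (31.0%). Of the genes higher in Col-0, 946 had a weaker or opposite effect in *WUS-GR* and 1089 a stronger one; of the genes lower in Col-0 these numbers were 1219 and 614. This balance depends on how the libraries are scaled, since TSA moved the median gene by -0.41 in *WUS-GR* and by -0.08 in Col-0 under library totals. *EXPA15* rose by 1.7 on the log2 scale in *WUS-GR* and by 4.59 in Col-0 (interaction adjusted p = 2.31e-05), *GH3.6* by 0.83 and 3.03 (2.78e-05), and *AT1G75060* by 0.81 and 3.94 (2.72e-05). *HY5* and *GNL* responded more strongly in *WUS-GR*, by 3.27 against 1.71 (5.69e-05) and 6.14 against 3.33 (9.02e-05). Among the lists, touch genes stood at 11 higher and none lower of those tested in *WUS-GR* and 5 and 3 in Col-0, and glucosinolate genes at 6 and none against 3 and 4. In the other direction, seed genes stood at 1 higher and 4 lower in *WUS-GR* and 3 and none in Col-0, hypoxia genes at 3 and 7 against 5 and 3, and non-coding RNA genes at 34 and 82 against 54 and 55. These list differences were not tested.

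**Figure D5:**
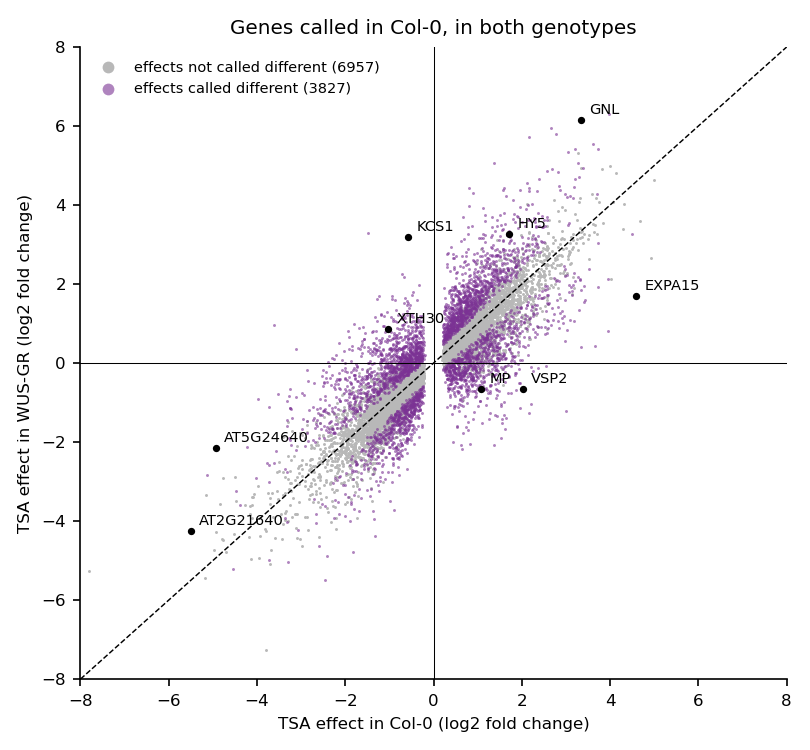
Log2 fold change with TSA in WUS-GR (y axis) against Col-0 (x axis) for 10781 genes called in Col-0 and tested in both genotypes; 3 further genes lie outside the axes. Purple genes (3827, those outside included) have an interaction past the threshold, grey genes (6957) do not, the dashed line marks equal effects and black dots mark named genes. Most genes lie in the quadrants of equal sign, and KCS1, XTH30, MP and VSP2 lie in those of opposite sign.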

How the data were processed

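Whole seedlings were profiled by poly(A)-selected, strand-specific RNA-seq. The authors aligned reads to TAIR10 with HISAT2 and deposited a table of raw counts per gene made with featureCounts; their annotation release, strand setting and treatment of multiply mapped reads are not given in the sources used here, so reads of overlapping genes on opposite strands and of close copies cannot be separated with certainty. The 6 Col-0 columns, matched to the labels, were tested with edgeR 4.0.16 in R 4.3.3 (TMM scaling, filterByExpr with a minimum count of 10, quasi-likelihood F-test, Benjamini-Hochberg adjusted p under 0.05 over all genes tested), and tables were made in Python 3.11.15. Totals ran between 14984125 and 21578662 counts, with a median standard error of 0.14 on the log2 scale. The *WUS-GR* libraries were fitted the same way, and the interaction on all 12 libraries. The study's methods call the 3 RNA-seq replicates biological, and the labels do not say whether they came from separate cultures. The p-values measure the spread between these samples, and how much of it is technical was not tested. The script was tested on simulated data with known changes.

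Genes were named by rule: the 15 largest rises and falls past the threshold with groups that did not overlap and a mean log2 CPM over 1, the largest rise and fall of each gene list (past the threshold, same level), genes marked in the lists, the 5 with most counts among those detected in one treatment, and the 5 that gained or lost most CPM. A single gene named by this rule is not reported here. Other list members were named after their values were seen, and members and lists were chosen with earlier results of these data known. Levels are CPM, so genes are compared with themselves and not with each other. Gene symbols, positions and promoter windows (250 bases before to 50 after the annotated start) were taken from RefSeq TAIR10.1. Alternatives were DESeq2 1.42.0, other scalings and filters, other thresholds, a replicate block, a GC and length correction and the omission of each library.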

Additional observations from a re-analysis of the deposited data

Results flagged for a closer look

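The effect of TSA was compared between *WUS-GR* and Col-0 by an interaction term in edgeR over all 12 libraries. Of the genes higher in Col-0, 946 had a weaker or opposite effect in *WUS-GR* and 1089 a stronger one, and of the genes lower in Col-0 the numbers were 1219 and 614. Of 143 named genes tested, 64 had such a difference and 9 were called in opposite directions in the 2 genotypes.

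The 9 differences, *WUS-GR* minus Col-0 on the log2 scale, were 3.78 for *KCS1* (fatty acid elongation for wax), 1.92 for *XTH30*, 1.88 for *CMT3* (DNA methylation), 1.73 for *ERF104*, 1.71 for *GA2OX6* (gibberellin inactivation), 1.3 for *DIN10* and 0.79 for *E2FC*, all lower in Col-0 and higher in *WUS-GR*. For *MP* it was -1.7 and for *VSP2*, a jasmonate-induced storage protein, -2.65, both higher in Col-0 and lower in *WUS-GR*. As described above, the Col-0 call of *E2FC* was lost under several alternatives, and the Col-0 fall of *XTH30* rested on a wide DEX group.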

How the results depend on the processing

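No gene called in the main comparison was called in the opposite direction in any of 18 alternatives. Those that only change a threshold reuse the main fit and could not turn a call, and the others share most or all of its libraries. Leaving out each library in turn gave 4816 to 5311 higher and 5013 to 5441 lower genes and kept 87.0% to 92.9% of the calls. DESeq2 called 5077 and 5138 genes, library totals 4827 and 6232, and a threshold of 2-fold 2407 and 2406. Genes detected with TSA alone numbered 15, but 0 with no counts against 10 or more, 4 with 3 or fewer counts against 20 or more, and 19 to 35 with a library left out; those without TSA alone numbered 26, and 5, 9 and 27 to 56. Under library totals, genes higher in Col-0 with a weaker or opposite effect in *WUS-GR* numbered 1995 and those with a stronger one 539, and for genes lower in Col-0 the numbers were 664 and 1706, so this balance depends on the scaling. *HDA19*, higher in the main comparison (log2 fold change 0.35), had a value of -0.013 under the GC and length correction, where it was not called. The median of 11 lists turned its sign under at least one alternative, and these lay within 0.25 of 0 except that of the seed list, at 1.36, which was -0.33 with at least 10 counts in every library, where fewer of its genes were tested. The cause was not tested.

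The replicate block gave 5606 higher and 5707 lower genes and changed no count of a list by over 1.5 times. The deviations of same-numbered libraries correlated at 0.117, 0.017 and 0.069, so the numbers were not taken to pair the samples. Of 94 counts of list members, 53 moved by over 1.5 times under the threshold of 2-fold, 9 under library totals, 8 at an adjusted p under 0.01, 4 at one under 0.1, 5 with at least 10 counts in every library, 4 under the GC and length correction, 3 in the fit of all 12 libraries, 2 in DESeq2, 2 with no filter on low counts and 11 with at least one library left out. Low counts limit many lists: 16991 genes were not tested.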
